A study of Mus musculus with 4 samples.

Results

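The 10 genes described here encode the machinery of MHC class I antigen presentation, and the set is defined by that function. They are the heavy chains H2-K1, H2-D1 and H2-T23, the light chain B2m, the peptide transporter subunits Tap1 and Tap2, the loading chaperone Tapbp, the immunoproteasome subunits Psmb8 and Psmb9, and the class I transactivator Nlrc5. All 10 were among the 49490 genes of the deposited table, and all 10 were among the 18378 genes abundant enough to be tested. Each was read at high depth, between 8272 and 337035 reads per gene and library.

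MHC class I molecules carry peptides from inside the cell to its surface, where CD8+ T cells read them. The proteasome cuts cytosolic proteins, the transporter TAP moves the peptides into the endoplasmic reticulum, and tapasin holds an empty heavy chain with its light chain at the transporter until a peptide fits. Nearly all nucleated cells make class I molecules, lymphocytes and dendritic cells at high levels, and interferon gamma raises most of these genes together through factors that include IRF1 and NLRC5.

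Polyadenylated RNA was sequenced from CD8+ T cells that had been isolated from mouse spleen and lymph nodes and activated in vitro, in order to find genes that depend on the transcription factor IRF8. The groups were 2 libraries labelled WT, which the series describes as Irf8 fl/fl, and 2 labelled Irf8 knockout, described as Irf8-/-. The labels name no Cre driver, stimulus, culture time, age or strain, and they do not name the animal or culture behind each library. Each p below thus reflects library-to-library spread alone, possibly of technical origin, and an exact two-sided permutation test of 2 against 2 cannot go below 0.333.

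The targeted gene went against the labels. Irf8 stood at 6364 and 6081 normalized counts in WT-labelled libraries and at 89508 and 90222 in knockout-labelled ones (log2 fold change 3.85, adjusted p = 4.32e-08), and fold changes are given throughout as knockout-labelled over WT-labelled libraries. The libraries held 58899365 to 59724952 reads. Of 14 T cell markers, 13 were lower, and their summed normalized count went from 654147 and 649341 to 451126 and 456338; Cd3e fell from 88610 ± 3359 to 54816 ± 711 (SD, n = 2 each), while Trac had a log2 fold change of -0.01. All 11 markers of plasmacytoid dendritic cells rose, and their sum went from 9170 and 9373 to 262948 and 262330, with Siglech and Ccr9 418-fold and 51.0-fold higher. Of the other lists, 6 of 7 conventional dendritic cell markers and 4 of 4 tested neutrophil markers rose (Elane and Mpo had 0 reads in the libraries labelled WT), as did 1 of 3 CD4 T cell markers (Cd4) and 1 of 5 tested B cell markers (Cd79b). The conventional dendritic cell sum went from 13872 and 13483 to 28516 and 28470, and the neutrophil sum from 77.3 and 126 to 1957 and 2079. Of 7 tested macrophage markers 5 fell (C1qa, C1qb, C1qc, Mrc1 and Arg1), as did 1 of 3 tested NK cell markers (Klrb1c), and 4 erythroid genes had log2 fold changes of 0.05 to 0.22 without passing (adjusted p = 0.0512 to 0.680). With each library centred on its median, 5 of the 7 conventional dendritic cell markers rose and Itgax fell (-0.17). All 14 T cell markers and 2 of the 4 erythroid genes then fell, and the counts of the other marker lists stayed the same. In bulk RNA, fewer cells of a type and less RNA per cell cannot be told apart. The part of these marker shifts in the results below was not tested.

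The promoters of the heavy and light chains are shown first, since H2-T23 moved apart from H2-K1 and B2m. RefSeq windows (GRCm38.p6, the assembly of mm10) were found for 8 of the 10 genes, and the 250 bases before the start site were searched on both strands. The letters searched were AANNGAAA, the core bound by interferon regulatory factors, GGGNNTTCC, a form of the NF-kappaB site, TGACG, the start of a cyclic AMP response element, and CCAAT, the NF-Y box. Capitals mark every match on either strand. The windows are chr17:34000348-34000597 on the minus strand for H2-K1, chr17:35262844-35263093 on the plus strand for H2-D1, chr17:36032702-36032951 on the minus strand for H2-T23 and chr2:122147437-122147686 on the plus strand for B2m, each written in the direction of transcription.
H2-K1: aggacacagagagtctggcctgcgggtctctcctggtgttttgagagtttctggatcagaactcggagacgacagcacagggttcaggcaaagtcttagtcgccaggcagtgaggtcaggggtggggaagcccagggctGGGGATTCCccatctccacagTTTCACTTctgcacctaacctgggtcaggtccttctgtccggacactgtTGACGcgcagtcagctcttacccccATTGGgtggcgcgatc
H2-D1: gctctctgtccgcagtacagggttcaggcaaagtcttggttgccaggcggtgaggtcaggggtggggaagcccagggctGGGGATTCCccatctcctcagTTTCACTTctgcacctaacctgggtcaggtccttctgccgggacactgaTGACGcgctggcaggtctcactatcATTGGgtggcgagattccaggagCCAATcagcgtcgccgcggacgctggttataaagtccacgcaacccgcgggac
H2-T23: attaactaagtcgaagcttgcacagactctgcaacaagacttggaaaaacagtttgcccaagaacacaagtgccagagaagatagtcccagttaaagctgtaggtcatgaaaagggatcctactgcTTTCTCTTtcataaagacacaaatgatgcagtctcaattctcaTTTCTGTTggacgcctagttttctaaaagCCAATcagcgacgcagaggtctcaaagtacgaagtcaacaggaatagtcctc
B2m: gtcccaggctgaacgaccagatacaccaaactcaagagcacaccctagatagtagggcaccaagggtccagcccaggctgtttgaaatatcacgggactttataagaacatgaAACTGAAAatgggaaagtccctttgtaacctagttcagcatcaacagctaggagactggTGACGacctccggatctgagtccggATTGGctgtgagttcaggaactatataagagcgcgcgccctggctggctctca

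The H2-K1 and H2-D1 promoters were nearly the same sequence, with 166 of 190 bases identical (87.4%) when shifted by 60 bases, whereas H2-T23 and H2-K1 shared 34.7% at their best ungapped shift, and B2m and H2-K1 shared 34.3%. AANNGAAA began 90 bases before the start of H2-K1 and 150 before that of H2-D1, both times as TTTCACTT on the reverse strand. GGGGATTCC lay just upstream at 111 and 171 bases. The H2-K1 window printed uses the start at 34000347. From another RefSeq start, 34000333, the H2-K1 sites lie at 104 and 125 bases, with a further CCAAT at 6 bases. In H2-T23 the core was found at 124 and 81 bases, as TTTCTCTT and TTTCTGTT, with no match to GGGNNTTCC or TGACG. B2m held AACTGAAA at 137 bases. AANNGAAA was found in 4 of the 8 genes (the 4 printed here), against 21.3% of 32851 promoter windows in the whole reference table. CCAAT was found in 7 of 8 against 33.8% of all windows, TGACG in 5 of 8 against 17.8%, and GGGNNTTCC in 2 of 8 against 4.98%. The letters were chosen after the sequences were seen, so these counts are no test of enrichment. The windows of Psmb9 and Tap1 overlap and hold the same CCAAT and TGACG sites, each counted for both genes. The 2 genes with GGGNNTTCC are H2-K1 and H2-D1, whose promoters are nearly the same sequence. Genes were counted for the 8, but windows for the reference. The matches describe letters and not binding.

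**Figure D1:**
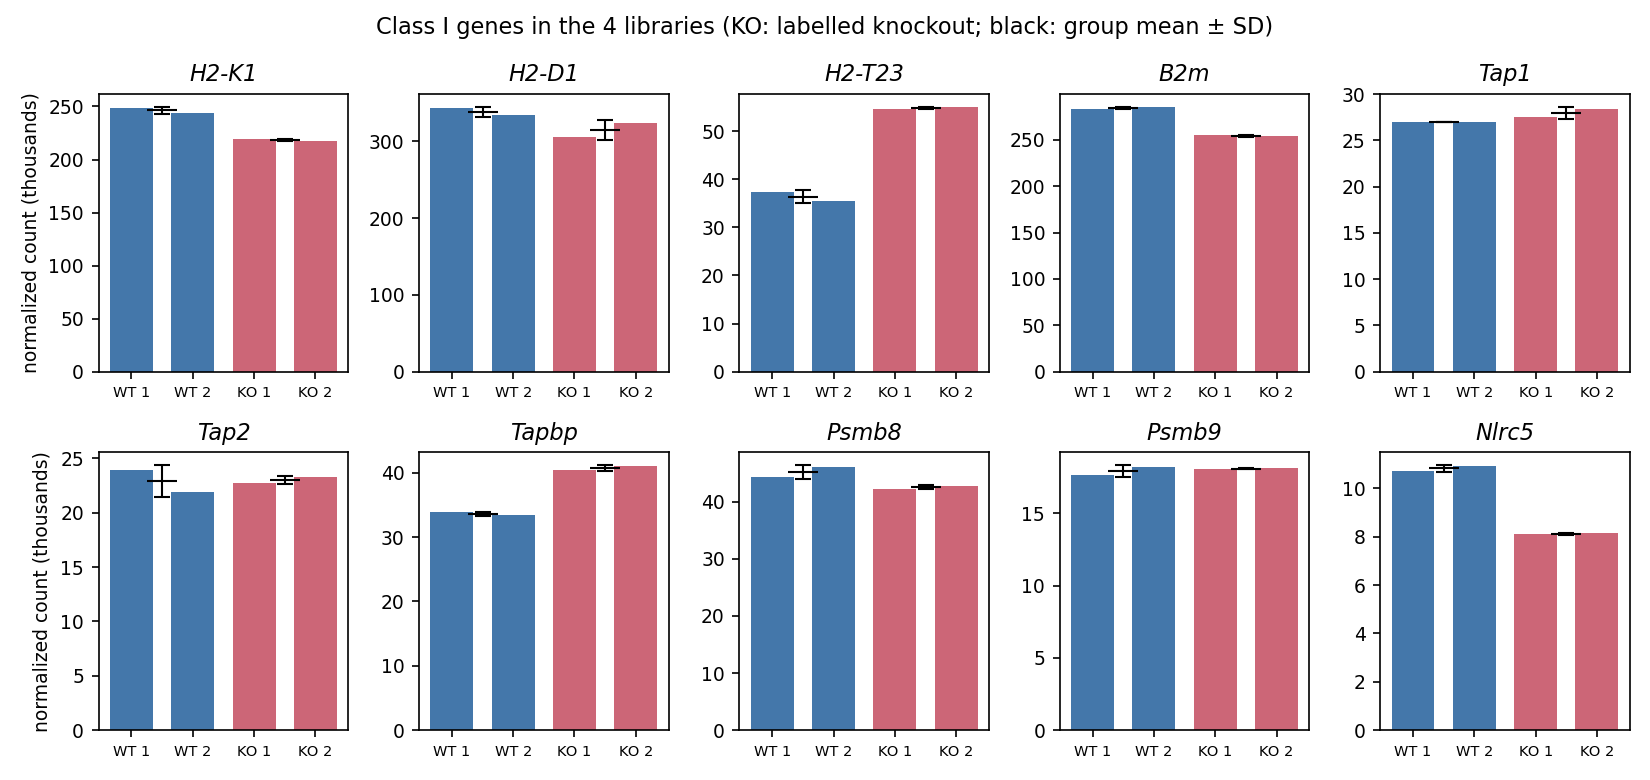
Normalized counts (vertical axes from 0) of the 10 genes in each library, with blue bars for the 2 libraries labelled WT, red bars for the 2 labelled knockout, and black marks for the group mean ± SD. H2-T23 and Tapbp stand higher in both red bars, Nlrc5, H2-K1 and B2m lower, and the groups of Tap2 and Psmb9 overlap.

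Among the heavy chains, the classical H2-K1 fell slightly, the nonclassical H2-T23 rose, and the classical H2-D1 did not pass the test. H2-K1 (ENSMUSG00000061232.16, chromosome 17, 33996017 to 34000347, minus strand), a classical chain that presents peptides to CD8+ T cells, was read at 248769 and 244003 normalized counts in the WT-labelled pair against 219127 and 217505 in the knockout-labelled pair. The groups did not overlap, and the mean was 11.4% lower, a log2 fold change of -0.17 (standard error 0.02, adjusted p = 0.00145). Without either library labelled knockout the size stayed at -0.18 and -0.17, but the call was lost, in fits where fewer of all genes passed. With each library centred on its median, a scaling that took the median log2 fold change of all genes from 0.02 to -0.28, H2-K1 stood at -0.47.

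H2-D1 (ENSMUSG00000073411.11, chromosome 17, 35262730 to 35267499, plus strand), the other classical chain, had 343002 and 334023 against 305765 and 324335. Its groups did not overlap in these counts either, but knockout-labelled replicate 2 lay close to the libraries labelled WT. Scaled to total reads and exon length instead, H2-D1 had 2219 and 2124 against 2048 and 2172, and the groups overlapped. The log2 fold change was -0.10 (95% interval -0.18 to -0.03) with an adjusted p of 0.0514, which did not pass, while the authors' deposited table, which calls 25.6% of its genes, gives 0.0282. It passed without WT-labelled replicate 2 (-0.12, adjusted p = 0.0140) and with median centring (-0.40, adjusted p = 2.73e-04), and leaving out 1 library moved it between -0.15 and -0.06. Relative to H2-K1 in the same library, H2-D1 differed by 0.07 on the log2 scale (interval -0.01 to 0.15, adjusted p = 0.146; 0.0224 to 0.118 with 1 library left out), so that unequal changes of these chains were not resolved.

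H2-T23 (ENSMUSG00000067212.8, chromosome 17, 36029773 to 36032855, minus strand) encodes the nonclassical chain Qa-1, which shows leader peptides of other class I chains to receptors of NK cells and CD8+ T cells. It had 37357 and 35385 normalized counts in the WT-labelled pair against 54680 and 55011 in the knockout-labelled pair. Both libraries labelled knockout lay far above both labelled WT, and the mean rose 1.51-fold, from 36371 ± 1395 to 54846 ± 234 (SD, n = 2 each). The log2 fold change was 0.59 (standard error 0.03, adjusted p = 5.51e-05), and it stayed between 0.55 and 0.63 when any 1 library was left out. With median centring it was 0.29 (adjusted p = 0.00169). As a share of the counts of the 3 chains, H2-T23 went from 5.94% and 5.77% to 9.43% and 9.22%.

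The change of H2-T23 differed from that of H2-K1. The ratio of their normalized counts was 0.150 and 0.145 in the WT-labelled pair and 0.250 and 0.253 in the knockout-labelled pair, a difference of 0.77 on the log2 scale (standard error 0.03, adjusted p = 6.92e-06). In the same fit, 37.8% of all genes differed from H2-K1. Heavy chain genes resemble each other, and of the 50-base stretches in coding transcripts 29.8% of H2-T23, 13.9% of H2-D1 and 6.87% of H2-K1 also occur in another annotated gene. At 100 bases the shares were 7.28%, 4.09% and 0%. How the authors counted reads shared between such genes is not stated in the labels, and these levels are uncertain to that extent. Of the genes that share most with H2-T23, H2-T-ps had means of 2316 and 2295, H2-Q1 of 5501 and 5345 and Gm7030 of 1018 and 1064. H2-Bl had means of 52.0 and 85.5 and Gm11127 of 527 and 623, neither past the threshold, and H2-D1 is described above. The part of shared reads in the change of H2-T23 was not tested.

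The light chain fell slightly, as did H2-K1, and a difference between their changes was not resolved. B2m (ENSMUSG00000060802.8, chromosome 2, 122147686 to 122153083, plus strand), the subunit that every class I heavy chain needs, had 283699 and 285346 against 255312 and 253850. The groups were narrow and apart, and the mean fell 10.5%, a log2 fold change of -0.16 (standard error 0.02, adjusted p = 0.00139). Without either library labelled knockout the size stayed at -0.16, but the call was lost, in fits where fewer of all genes passed. With median centring the change was -0.46. The ratio of B2m to H2-K1 was 1.14, 1.17, 1.16 and 1.17 in WT-labelled replicates 1 and 2 and knockout-labelled replicates 1 and 2, a difference of 0.01 on the log2 scale (interval -0.04 to 0.07, adjusted p = 0.667).

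Neither subunit of the peptide transporter passed the test. Tap1 (ENSMUSG00000037321.17, chromosome 17, 34187553 to 34197225, plus strand) had 27029 and 26981 in the WT-labelled pair and 27512 and 28445 in the knockout-labelled pair. Its log2 fold change was 0.05 (interval -0.03 to 0.13, adjusted p = 0.269). Tap2 (ENSMUSG00000024339.12, chromosome 17, 34203527 to 34216321, plus strand), its partner subunit, had 23934 and 21860 against 22749 and 23298, with groups that overlapped. Its log2 fold change was 0.01 (interval -0.11 to 0.13, adjusted p = 0.904). With median centring both were called lower, at -0.25 (adjusted p = 0.00180) and -0.29 (adjusted p = 0.00554). The subunits' ratio differed by 0.04 between the groups (interval -0.12 to 0.21, adjusted p = 0.712, where 27.0% of all genes differed from Tap2).

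Tapbp (ENSMUSG00000024308.15, chromosome 17, 33915899 to 33929292, plus strand), which encodes tapasin, rose. Its normalized counts were 33854 and 33377 in the WT-labelled pair and 40408 and 41032 in the knockout-labelled pair. The mean was 21.1% higher, a log2 fold change of 0.28 (standard error 0.03, adjusted p = 6.59e-04), and it passed with any 1 library left out. With median centring the change became -0.02 (adjusted p = 0.609). Relative to Tap1, Tapbp rose by 0.23 (standard error 0.03, adjusted p = 0.00287, where 34.1% of all genes differed from Tap1), a ratio within each library that no scaling alters. That call was lost without knockout-labelled replicate 1 (0.21, adjusted p = 0.0603) or replicate 2 (0.24, adjusted p = 0.0525). An antisense gene, Gm19412, covers 24.9% of the exon bases of Tapbp, but had means of only 14.3 and 18.6.

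Neither immunoproteasome subunit passed the test. These subunits replace constitutive catalytic subunits of the proteasome in cells of the immune system and change which peptides are cut. Psmb8 (ENSMUSG00000024338.15, chromosome 17, 34197721 to 34201454, plus strand) had 44324 and 46042 against 42315 and 42768, groups that did not overlap but lay close. Its log2 fold change was -0.09 (interval -0.16 to -0.01, adjusted p = 0.0772), which did not pass. Psmb9 (ENSMUSG00000096727.3, chromosome 17, 34181987 to 34187764, minus strand) had 17663 and 18219 against 18065 and 18120, with overlapping groups and a log2 fold change of 0.01 (interval -0.07 to 0.09, adjusted p = 0.812). Psmb8 passed without WT-labelled replicate 1 (-0.11, adjusted p = 0.0159), and with median centring Psmb8 and Psmb9 were called lower, at -0.39 and -0.29.

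Psmb8 rose relative to Psmb5, the constitutive subunit it replaces, which itself fell. The ratio of Psmb8 to Psmb5 in normalized counts was 6.60 and 6.48 in the WT-labelled pair and rose to 7.50 and 7.64 in the other pair, a difference of 0.21 on the log2 scale (standard error 0.05, adjusted p = 0.0102, where 44.6% of all genes differed from Psmb5). The adjusted p rose to 0.147 and 0.197 without knockout-labelled replicates 1 and 2. Per length of all exon bases, Psmb8 made up 63.7% and 63.3% of both genes' level in WT-labelled and 66.6% and 67.0% in knockout-labelled libraries. Such shares depend on the length used, so their absolute size is uncertain. Psmb8 and Psmb9 have 3381 and 3660 exon bases, but longest coding transcripts of 1628 and 1352 bases. For Psmb9 against Psmb6 a difference was not resolved (0.02, interval -0.14 to 0.18, adjusted p = 0.848, where 30.1% of all genes differed from Psmb6), and its per-length share of that pair was 48.5% and 48.8% in WT-labelled and 49.97% and 48.1% in knockout-labelled libraries. Psmb8 against Psmb9 differed by -0.10 with an adjusted p of 0.0744 (33.2% of all genes differed from Psmb9).

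The transactivator had the largest decrease of the 10 genes. Nlrc5 (ENSMUSG00000074151.13, chromosome 8, 94434356 to 94527272, plus strand) encodes the NOD-like receptor that drives the promoters of class I genes, B2m, TAP and the immunoproteasome. It had 10734 and 10922 normalized counts in the WT-labelled pair against 8105 and 8162 in the knockout-labelled pair. The libraries of each group lay close together and the groups far apart, and the mean fell 24.9%, from 10828 ± 133 to 8133 ± 40.0 (SD, n = 2 each). The log2 fold change of -0.41 (standard error 0.04, adjusted p = 3.51e-04) passed with any 1 library left out, where it lay between -0.43 and -0.40, and was -0.71 with median centring.

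In all, 2 of the 10 genes rose and 3 fell at an adjusted p under 0.05 by limma, and 5 did not pass. Over all 18378 genes tested, 19.9% rose and 13.4% fell. In normalized counts, the groups did not overlap in 8 of the 10, against 68.8% of all genes. In a set of 10 such counts are no result about the set. With median centring, 1 of the 10 rose (H2-T23) and 8 fell, while all genes went from 3662 higher and 2469 lower to 2389 and 7210. None of the 10 changed more than 2-fold. Of the 18378 genes tested, 2093 were called with such a change, so 0 of 10 is no result about the set either. The median log2 fold change of the 10 was -0.04 beside 0.02 over all genes. The median absolute change was 0.13 for the 10 and 0.31 for all genes, most of which had lower counts than these 10. Together the 10 genes took 1.79% and 1.73% of reads in the WT-labelled pair and 1.72% and 1.75% in the others.

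The T cell markers of the same libraries fell on average further than each of the 10 genes. The mean log2 fold change of the 14 T cell markers was -0.60, so that 65.9% of their level remained. Relative to that mean, all 10 class I genes were higher, by 0.19 (Nlrc5, adjusted p = 0.00466) to 1.19 (H2-T23, adjusted p = 1.25e-06), but so were 66.5% of all genes, while 0.658% were lower. H2-K1, H2-D1 and B2m stood 0.43, 0.50 and 0.44 above the T cell markers, and Tapbp 0.88.

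Per kilobase of exon and scaled to 1000000 reads, B2m had the highest level, 5472 ± 44.5 in the WT-labelled pair and 5113 ± 21.2 in the knockout-labelled pair (SD, n = 2 each). H2-D1 followed with means of 2171 and 2110 and H2-K1 with 1387 and 1283. Psmb8 (221 ± 3.24) and H2-T23 (208 ± 10.5) were near each other in the libraries labelled WT, and in those labelled knockout H2-T23 stood above, at 328 ± 1.37 against 217 ± 1.62 (SD, n = 2 each). Tapbp came next (153 and 194), then Tap2 (100.2 and 105), Tap1 (81.6 and 88.2) and Psmb9 (81.1 and 85.4), and the Tap1 and Psmb9 values overlapped in the libraries labelled WT. Nlrc5 was lowest, at 21.1 and 16.5. In this scaling to total reads, the decreases of B2m, H2-K1 and H2-D1 were smaller than in normalized counts. Tap1 and Psmb9 were higher in both knockout-labelled libraries than in both labelled WT. No test was run on this scaling. Using the longest coding transcript as length instead moved Psmb9 above Tapbp in the libraries labelled WT and above Tap1 and Tap2 in both groups, and Tap1 above Tap2, so the middle of the order depends on the length chosen.

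**Figure D2:**
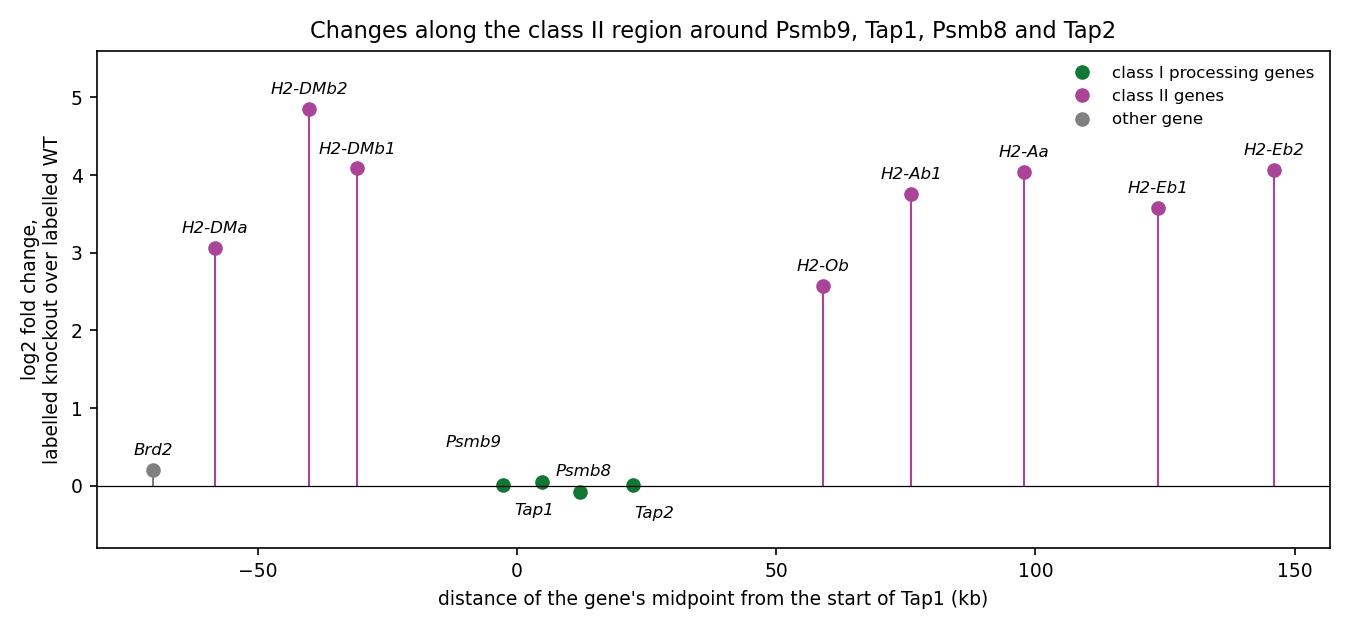
Log2 fold change of each tested protein-coding gene except BC051142 (vertical axis) against the distance in kb of its midpoint from the start of Tap1 (horizontal axis), with class I processing genes in green, class II genes in purple and Brd2 in grey. BC051142, called higher at 3.82 from 0 in both WT-labelled libraries to 14.7 and 11.7 normalized counts, is not drawn. The 4 green genes lie between -0.09 and 0.05, and every purple gene on both sides lies at 2.57 or above.

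Of the 10 genes, 4 lie in the class II region of chromosome 17, in the order Psmb9, Tap1, Psmb8 and Tap2 over 34.3 kb, and their class II neighbours on both sides rose. The nearest tested protein-coding gene on the Psmb9 side, 21.8 kb away, is H2-DMb1, a chaperone subunit for class II peptide loading. It rose 17.0-fold from a mean of 423 to 7184. On the Tap2 side, 22.6 kb away, H2-Ob, a class II loading modulator, rose 5.98-fold from a mean of 173 to 1036. H2-Ab1 and H2-Aa, the class II chains beyond it, rose 13.6-fold and 16.5-fold. Psmb9 and Tap1 start 226 bases apart on opposite strands and share 212 exon bases, so that without strand-specific counting some reads cannot be told apart. The antisense gene Gm20496 overlaps 14.7% of the exon bases of Psmb8 and had means of 76.5 and 95.2. Gm15821, a noncoding gene on the other strand, overlaps 14.1% of those of Tap2 and had means of 55.6 and 64.0.

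The other class II genes of the list rose as well. All 10 passed upward, with a median log2 fold change of 3.88 and a range from 2.03 to 4.85. Cd74, the invariant chain, and H2-Eb1 rose 16.0-fold and 12.0-fold. Ciita, the class II counterpart of Nlrc5, rose 18.5-fold from 252 and 206 to 4106 and 4363, while Nlrc5 fell. The class II list took 0.0551% and 0.0561% of reads in the WT-labelled pair and 0.839% and 0.850% in the others, still below the class I genes. These rises stand beside those of the 11 plasmacytoid dendritic cell markers, whose part in them was not tested.

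**Figure D3:**
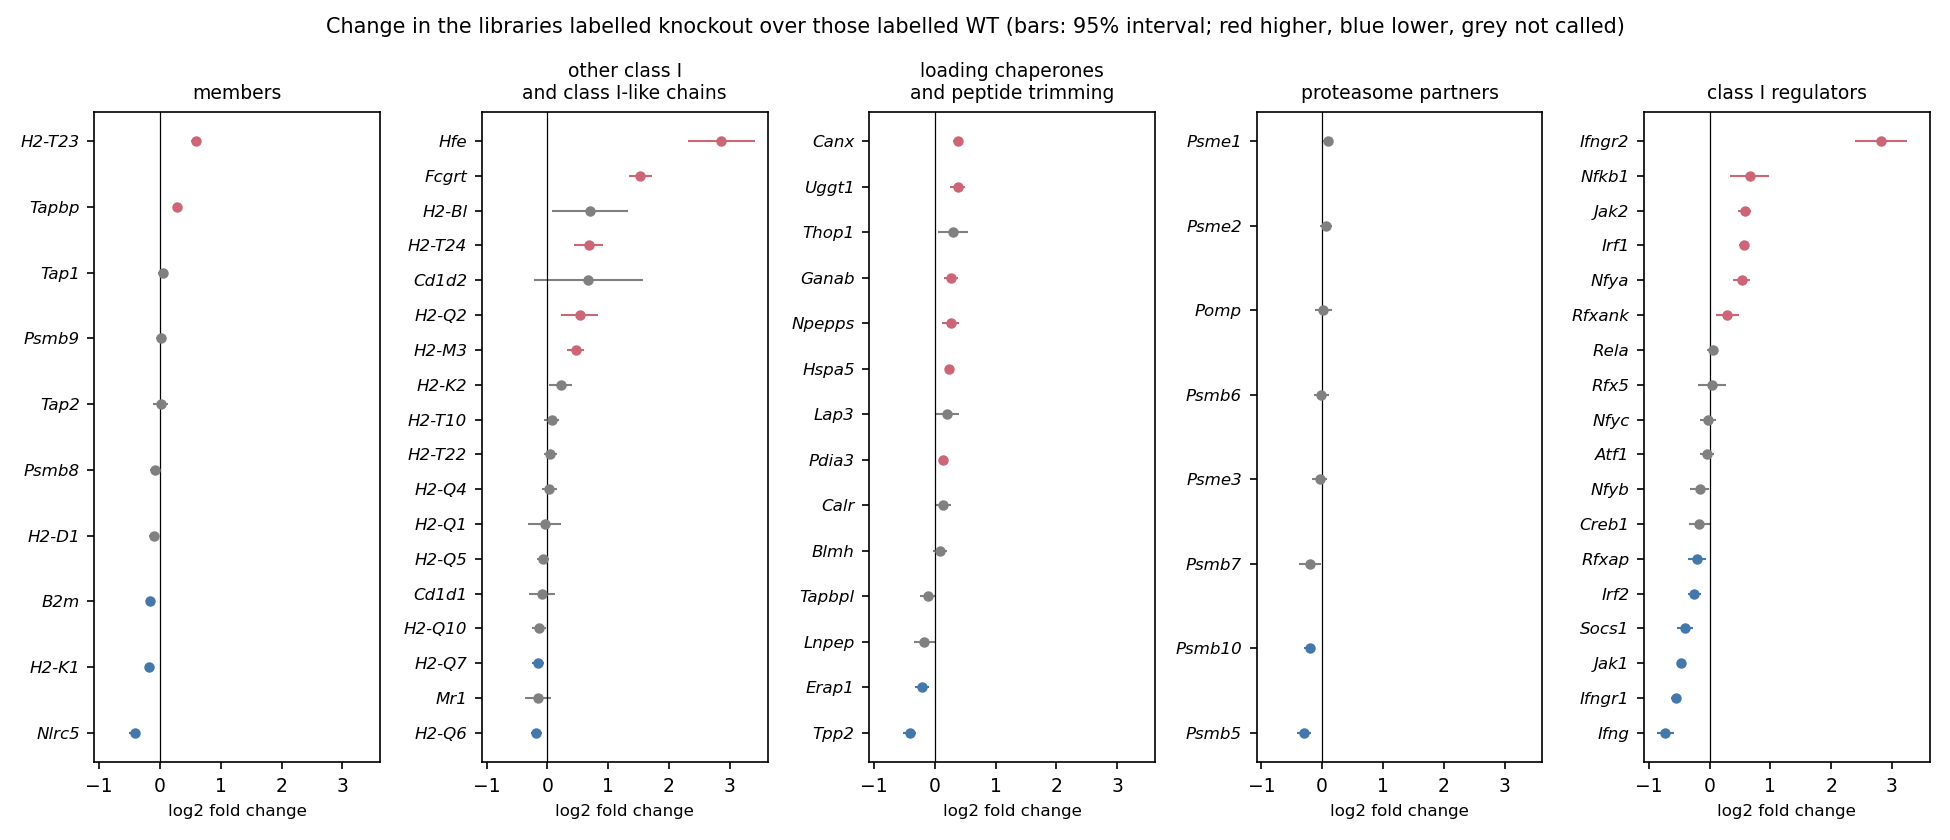
Log2 fold change with its 95% interval (horizontal axis, one scale for all panels) for the 10 genes and for 4 lists of related genes, with red for higher, blue for lower and grey for not called. H2-T23 leads the first panel at 0.59 and Nlrc5 closes it at -0.41, and only Hfe, Fcgrt and Ifngr2 exceed 1; H2-M2, with 0 reads in WT-labelled replicate 1, is not drawn.

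Other class I and class I-like chains moved both ways. Of 19 tested, 5 rose and 2 fell, with a median log2 fold change of 0.07, and with median centring 3 rose and 10 fell. Among all 18378 genes tested, 19.9% rose and 13.4% fell, and with median centring 2389 rose and 7210 fell. H2-Q6 and H2-Q7, nonclassical chains of the Q region, fell by 0.18 and 0.15 on the log2 scale, near the change of H2-K1, from means of 59805 to 52734 and of 106174 to 95483. H2-M3, which presents formylated peptides, rose 1.38-fold, H2-T24 1.60-fold and H2-Q2 1.44-fold, and of these H2-T24 also passed with median centring. Of the relatives that bind no peptide, 2 rose: Fcgrt, the receptor that recycles immunoglobulin G, 2.89-fold from 1563 and 1379 to 4164 and 4324, and Hfe, a regulator of iron uptake, 7.49-fold from 62.1 and 56.2 to 518 and 367. Others of that kind did not pass: Mr1, which presents vitamin metabolites, had -0.15, and the lipid-presenting Cd1d1 and Cd1d2 had -0.09 and 0.67 on the log2 scale. H2-T3, H2-M1, H2-M9, H2-M10.1 and H2-M11 had 0 reads in the 4 libraries. Heavy chain genes resemble each other, so reads can be split between members of the Q and T families, whose shared sequence was measured here only for H2-T23.

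Among genes that help load and trim peptides, 6 rose and 2 fell of 14 tested, with a median log2 fold change of 0.17. With median centring 7 fell and the 6 were no longer called higher. The shares over all genes were 19.9% and 13.4%, and median centring gave 2389 higher and 7210 lower of 18378. The increases under the deposited scaling included chaperones of glycoprotein folding: Canx (calnexin) rose 1.31-fold, Uggt1, which tests the fold of glycoproteins, 1.30-fold, Ganab 1.20-fold, and Hspa5, the main chaperone of the endoplasmic reticulum, 1.18-fold. Pdia3, the oxidoreductase of the loading complex, rose 1.10-fold, Npepps 1.20-fold, and Calr (calreticulin) had 0.13 without passing (adjusted p = 0.107). The peptidases Erap1, which shortens peptides inside the endoplasmic reticulum, and Tpp2, a cytosolic enzyme, fell by 0.21 and 0.41 on the log2 scale. Tapbpl, a relative of tapasin that edits peptides outside the loading complex, had -0.11 (adjusted p = 0.151). With median centring Canx and Uggt1 stood at 0.09 and 0.08, Ganab, Npepps and Hspa5 at -0.03, -0.04 and -0.06, and Pdia3 at -0.16.

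Of 8 other proteasome genes, 2 fell and 6 did not pass, and with median centring all 8 fell. Over all genes, 13.4% fell and 19.9% rose, but with median centring 7210 of 18378 fell and 2389 rose. Psmb10, the third immunosubunit, fell by 0.20 (adjusted p = 0.00783) and Psmb5 by 0.30 (adjusted p = 0.00396). Psme1 and Psme2, the subunits of the PA28 activator, had log2 fold changes of 0.09 and 0.06, and the constitutive subunits Psmb6 and Psmb7 had -0.01 and -0.20, none past the threshold.

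Regulators of class I genes moved both ways, 6 higher and 6 lower of 18, or 4 and 11 with median centring. All genes tested gave 19.9% higher and 13.4% lower, or 2389 and 7210 of 18378 with median centring. Ifng, the cytokine interferon gamma, fell by 0.73 on the log2 scale, Ifngr1, its ligand-binding receptor chain, by 0.56, Jak1, the kinase on that chain, by 0.47 and Socs1, an inhibitor of cytokine receptor signalling, by 0.41. Ifngr2, the second receptor chain, rose 6.97-fold from 235 and 342 to 2030 and 1992, Jak2 1.49-fold and Irf1 1.48-fold, from 15217 and 15027 to 22380 in both. Nfya, a subunit of the NF-Y factor that binds CCAAT, rose 1.44-fold, and Rfx5, part of the complex that NLRC5 joins at class I promoters, had a log2 fold change of 0.04 (adjusted p = 0.780).

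Over the 4 libraries, H2-K1 and B2m were each other's nearest of the 10, by Euclidean distance between log2 values centred on each gene's mean (0.0293), and Tap1 and Psmb9 were likewise (0.0597). H2-T23 had no close counterpart, its nearest being Tapbp at 0.319. Among 12519 genes with a mean of at least 100, the nearest to H2-T23 was Dnajc16 and the nearest to Nlrc5 was Il27ra, at 0.0228 and 0.0134. The nearest genes to H2-K1, H2-D1, B2m, Tap1, Tap2, Tapbp, Psmb8 and Psmb9 were Fbxw4, Slc4a1ap, Efl1, Trp53bp1, 9030624J02Rik, Hsdl2, Mettl10 and Zc3hav1l, at 0.00665 to 0.0131. With 2 groups of 2 libraries, this measure mostly ranks genes by the size of their change.

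**Figure D4:**
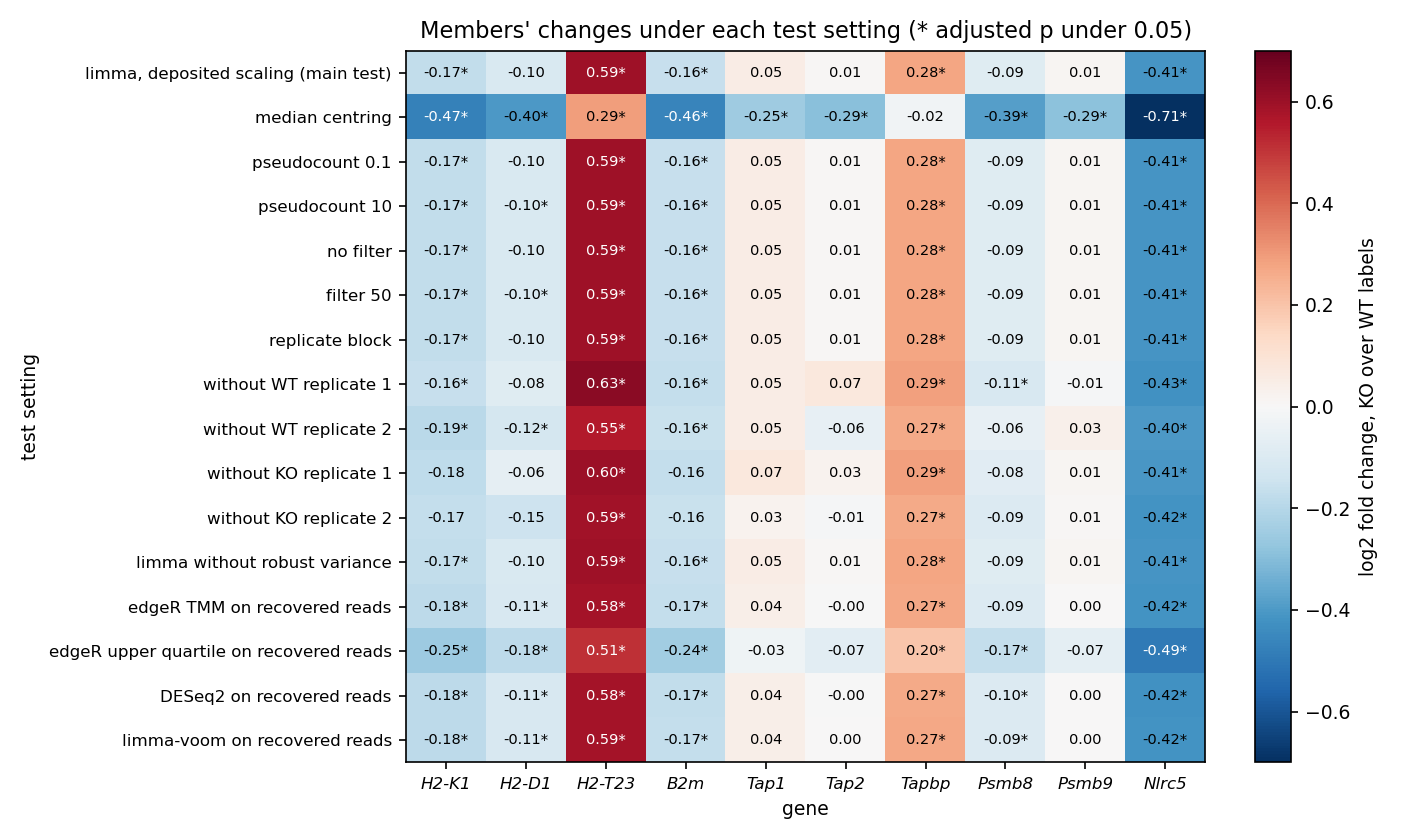
Log2 fold change of each of the 10 genes (columns) under each test setting (lines of the grid), with the value printed, colour from blue (lower) to red (higher) and an asterisk for an adjusted p under 0.05. H2-T23 and Nlrc5 carry an asterisk in every setting, and median centring is the setting in which Tapbp, Tap1, Tap2 and Psmb9 all turn below 0.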

How the data were processed

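The 4 libraries were grouped by their genotype labels. The submitters' processing notes list Trim Galore (0.4.4), HISAT2 (2.2.1), StringTie (2.1.4), DESeq2 and the mm10 build. Annotation, strand use and read length: not given in the sources used here. Normalized counts per library, a signal scaled by size factors, were deposited (column names and values). The deposited table also gives log2 fold changes of WT over knockout, a Wald score, p-values and adjusted p-values.

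Whole reads were recovered for 100.0% of values within 0.01 reads, with size factors of 0.979 to 1.03. The main test was limma 3.58.1 in R 4.3.3, with a trended, robust eBayes step, on log2(normalized count + 1). Genes needed 10 or more in at least 2 libraries. This limma test was the one planned for normalized values, and an edgeR count test was planned for raw counts. Benjamini-Hochberg adjustment ran across every gene in the fit, at 0.05. Intervals are 95%, and folds are ratios of group means. For a ratio of genes, the reference gene's log2 value was subtracted from all genes in each library before the fit. The fit was also run on simulated counts in which few genes changed, so that run does not bear on the scaling of these libraries.

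Other settings were centring on medians, a pseudocount of 0.1 or 10, a filter of 50 or none, a replicate block, leaving out each library, limma without robust variance, and edgeR 4.0.16, DESeq2 1.42.0 and limma-voom on recovered reads. Positions came from GENCODE M21 (GRCm38) and promoters from RefSeq, and motif letters were chosen after the sequences were seen. The members and lists were chosen with earlier results of these data known. All 10 genes were named. Of each related list, every gene past the threshold was named where there were 8 or fewer, otherwise the 4 with the smallest adjusted p in each direction, with set pathway genes added. Of the marker lists, the 2 most abundant genes were to be named, which was done for T cells and plasmacytoid dendritic cells. The other markers, the genes beside the Tap block and those overlapping or resembling a member were named after their values were seen. The result of 1 gene of the regulator list is not reported here, and the gene was left out of that list's counts.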

Additional observations from a re-analysis of the deposited data

How the results depend on the processing

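Under the 15 alternatives, H2-T23 stayed higher (0.29 to 0.63) and Nlrc5 lower in all 15; Tapbp was called in 14, H2-K1 and B2m in 13, H2-D1 in 8, Psmb8 in 5, and Tap1, Tap2 and Psmb9 in 1. The counts of 2 higher and 3 lower became 1 and 8 with median centring. With edgeR upper quartile factors, DESeq2 and limma-voom, 5 were lower. Over all genes, 3662 were higher and 2469 lower in the main test, and 2389 and 7210 with median centring. Upper quartile factors gave 3248 and 3658 over all genes, DESeq2 3494 and 2549, and limma-voom 3787 and 2641. Leaving out 1 library gave 2 higher and 1 to 4 lower; without either library labelled knockout, only Nlrc5 of the 3 still passed. Median centring turned Tap1 to -0.25, Tap2 to -0.29, Tapbp to -0.0238 and Psmb9 to -0.29. Upper quartile factors turned Tap1 to -0.0292, Tap2 to -0.0725 and Psmb9 to -0.0682. Tap2 also fell below 0 with edgeR TMM factors (-2.97e-05), DESeq2 (-0.00145), without WT replicate 2 (-0.0561) and without knockout-labelled replicate 2 (-0.0079), and Psmb9 without WT replicate 1 (-0.0101). The cause was not tested. Leaving out each library gave ranges of -0.0561 to 0.0747 for Tap2, -0.0101 to 0.0346 for Psmb9, -0.0041 to 0.0322 for B2m to H2-K1, -0.0225 to 0.106 for Tap1 to Tap2, 0.21 to 0.24 for Tapbp to Tap1, 0.20 to 0.22 for Psmb8 to Psmb5, -0.0297 to 0.0769 for Psmb9 to Psmb6 and -0.104 to -0.0935 for Psmb8 to Psmb9, which passed without either library labelled WT. The counts above the T cell markers were 9 to 10, with 9 without knockout-labelled replicate 1.

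With the replicate number as a block, 2 of the 10 genes were higher and 3 lower, as without it. Over all genes, 3415 were higher and 2168 lower with the block, against 3662 and 2469 without it. Same-numbered libraries deviated together with a correlation of 0.017. With 2 libraries per group this value cannot exclude a pairing, and the labels do not state whether the numbers pair the samples. The 10 genes had at least 8272 reads per library, with 2 libraries per group.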
